A study of Esox lucius with 13 samples.

Results

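Rhodopsin, Opsin-5, Beta-crystallin S-1 and protein C2orf71 are annotations of light-sensing, lens and photoreceptor proteins in the northern pike, *Esox lucius*, transcriptome. The rows with these 4 names in the parts of the study's annotation tables used here were matched to 5 of the 38696 deposited transcripts, since Opsin-5 was the name of both a transcript highest in eye and a transcript highest in spleen. Only 1999 rows of each table were read, so further transcripts of these names may be among those without a name here. All RNA came from a single wild type, juvenile male pike, and 1 library was sequenced from each of 13 tissues, namely eye, brain, nose and gill, the gut and stomach, spleen and both kidney and head kidney, liver, heart, muscle and testis. The question asked of these transcripts was how photoreceptor, non-visual opsin and lens messages compared within eye, and whether they were present in brain and gill. With 1 library per tissue there were no replicates, so every interval below is an exact 95% interval that covers counting error only, and no difference between tissues could be set against variation between fish.

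Opsins are membrane receptors that hold a retinal chromophore and activate a G protein when light changes its shape. Rhodopsin is the visual pigment of rods, whereas Opsin-5, also called neuropsin, is a non-visual opsin and in birds and mammals responds to short wavelengths. Crystallins are the soluble proteins that give the vertebrate lens its refractive power, and C2orf71 is the former human name of a protein of the photoreceptor cilium whose loss causes retinal degeneration in humans.

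Libraries held between 17240414 fragments (brain) and 22300517 fragments (liver), with 20128732 in eye, where a fragment is a sequenced read pair assigned to a transcript. Levels are given as FPKM, fragments scaled to the length of the transcript and to the library total, which allows transcripts of different length to be compared. For a library with no fragment, a floor of 3 fragments was used, which lies somewhat below the upper end of the exact 95% interval of a count of 0. The eye library held retinal messages, and the transcripts of Arrestin-C, the arrestin of cones, and Peripherin-2, a structural protein of photoreceptor discs, had 1196 and 137 FPKM in eye.

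In eye, the 4 eye transcripts covered more than 3 orders of magnitude in the order rod pigment, lens crystallin, photoreceptor cilium protein and non-visual opsin. Rhodopsin had 16459.5 FPKM (16416 to 16503), Beta-crystallin S-1 had 4454 (4426 to 4481), protein C2orf71 had 60.1 (57.4 to 62.9) and the eye transcript of Opsin-5 had 6.34 (5.41 to 7.39). Rhodopsin was 3.70-fold above the crystallin (3.67 to 3.72), and the crystallin was 74.0-fold above C2orf71 (70.7 to 77.6). C2orf71 was 9.47-fold above Opsin-5 (8.07 to 11.2), so that no neighbours in this order had overlapping intervals. Rhodopsin was 2592-fold above the eye transcript of Opsin-5 (2224 to 3040).

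Rhodopsin was the most abundant of the 1055 transcripts that lay more than 3 standard deviations (SD) above their 13-tissue mean in eye, and the transcript with the 2nd highest eye FPKM of all 38696. Its 544342 fragments were 2.70% of the eye library (exact binomial interval 2.70 to 2.71%). Beta-crystallin S-1 ranked 5th among the same 1055 transcripts and held 0.511% of the eye fragments (0.508 to 0.514%). C2orf71 ranked 118th and the eye transcript of Opsin-5 ranked 502nd, at a level well above the median of 0.664 FPKM over all transcripts in eye. The plot of levels by tissue shows both the spread in eye and the near absence elsewhere.

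**Figure D1:**
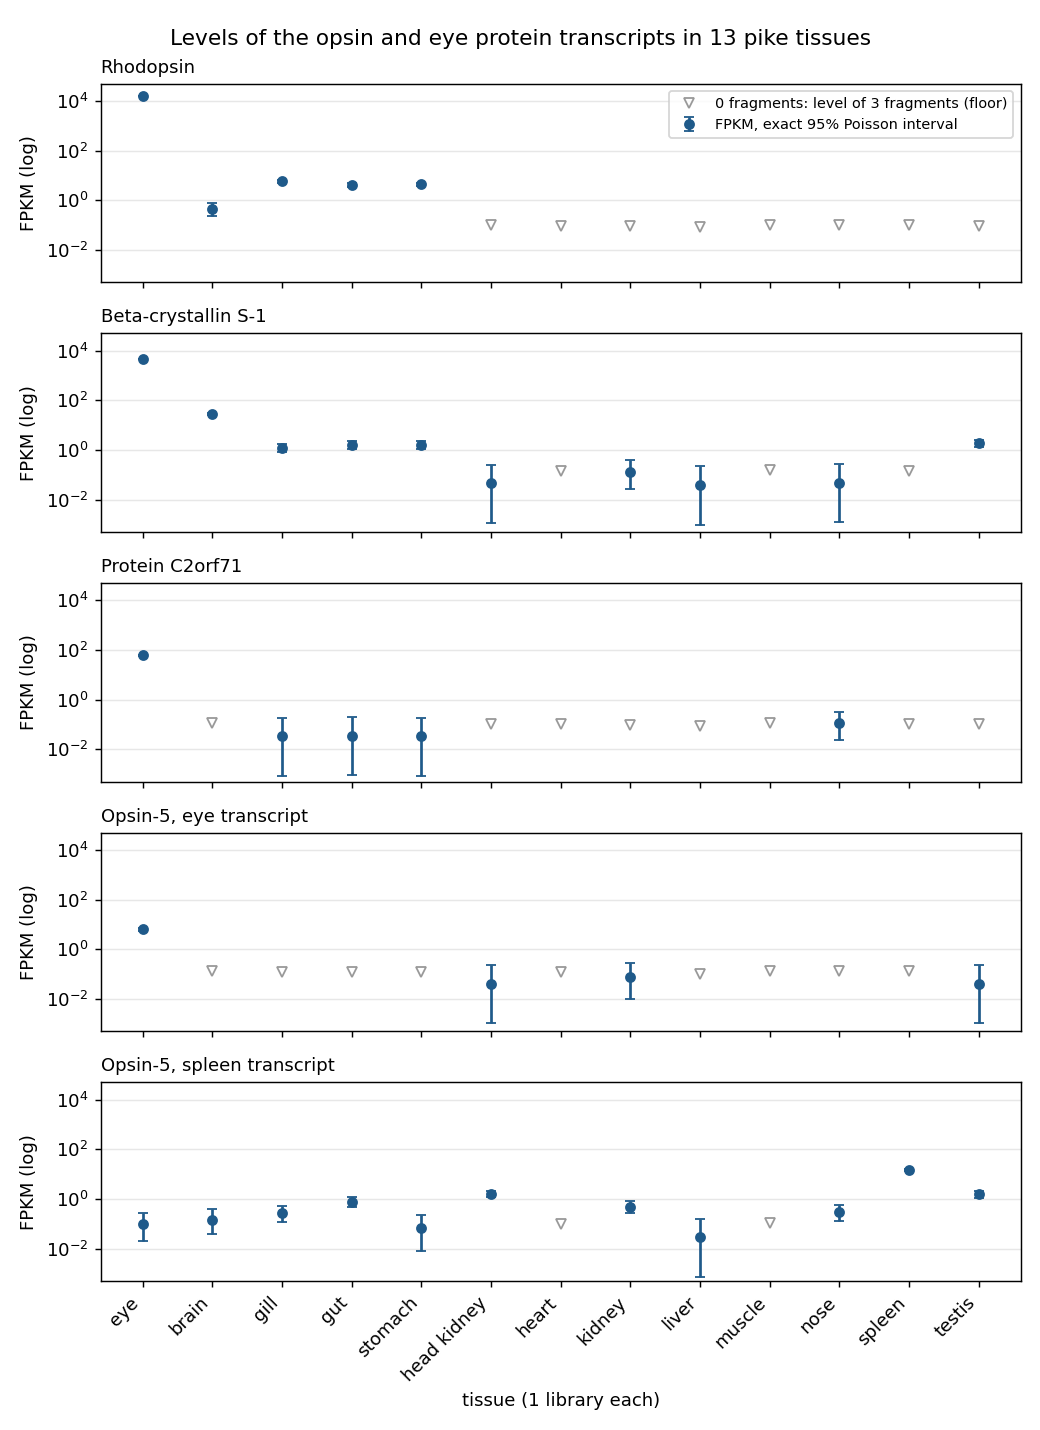
Level of each transcript in the 13 tissues, in FPKM on a log axis, with eye at the left and 1 library per tissue; bars are exact 95% Poisson intervals and open triangles mark libraries with 0 fragments, drawn at the level of 3 fragments. Rhodopsin (16459.5 FPKM), Beta-crystallin S-1 (4454), protein C2orf71 (60.1) and 1 Opsin-5 transcript (6.34) were highest in eye, and the other Opsin-5 transcript was highest in spleen (14.8).

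Of these transcripts, 4 of 5 were at least 10-fold higher in eye than in the next tissue with at least 10 eye fragments, a pattern that 1.04% of all transcripts had. At least 100-fold was reached by 3 of 5, against 0.168% of all transcripts. The same 4 transcripts were above 3 SD in eye, as were 2.73% of all transcripts, and their scores were each 3.33, the maximum that 13 tissues allow. The transcripts were selected with eye expression already known, so these counts describe them and test nothing.

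Rhodopsin fragments were found in 5 of the 13 libraries. There were 544342 fragments in eye, against 180 in gill, 142 in stomach, 131 in gut and 13 in brain. The other 8 libraries (testis, spleen, nose, muscle, liver, kidney, heart and head kidney) each had 0, as they did for 4.39% of all transcripts. Eye thus stood apart from all other tissues, and gill, stomach and gut formed a group far below it. The level was 16459.5 FPKM in eye, against 5.74 (4.94 to 6.65) in gill, 4.37 (3.68 to 5.15) in stomach, 4.23 (3.53 to 5.01) in gut and 0.459 (0.244 to 0.785) in brain. Eye was 2866-fold above gill (2476 to 3335) and 35864-fold above brain (20973 to 67356). Gill was 1.31-fold above stomach (1.05 to 1.65), stomach and gut did not differ beyond counting error (ratio 1.03, 0.810 to 1.32), and gut was 9.21-fold above brain (5.20 to 17.8). With the fragment floor for libraries with no fragment, eye was 159428-fold above nose (lower limit 129655) and 172910-fold above testis (lower limit 140619).

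Beta-crystallin S-1 fragments were found in 10 of the 13 libraries. There were 102822 fragments in eye, against 541 in brain, 41 in testis, 37 in stomach, 35 in gut and 27 in gill. Kidney had 3 fragments, head kidney, liver and nose had 1 each, and heart, muscle and spleen had 0. Brain was therefore the next tissue for this lens protein, whereas brain was the lowest of the 5 libraries that held rhodopsin. The level was 4454 FPKM in eye, against 27.4 (25.1 to 29.8) in brain and 1.23 (0.813 to 1.80) in gill. Eye was 163-fold above brain (150 to 177) and 3609-fold above gill (2480 to 5476). Brain was in turn 14.7-fold above testis (10.7 to 20.7), while testis and stomach (ratio 1.14, 0.715 to 1.83), stomach and gut (1.01, 0.618 to 1.65) and gut and gill (1.31, 0.771 to 2.25) did not differ beyond counting error. The name of this transcript is less certain than those of rhodopsin, C2orf71 and the eye transcript of Opsin-5. The gene model that carries it had relatively more testis and brain fragments than the transcript, and these 2 libraries made up 95.1% of the distance between their profiles. That distance was 18.6, close to the limit of 20 set for such a pair.

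Protein C2orf71 had 1855 fragments in eye, against 3 in nose and 1 each in gill, gut and stomach. The brain library and the other 7 had 0. Outside eye this transcript was thus represented by at most 3 fragments in any library. Its level was 60.1 FPKM in eye and 0.111 (0.0229 to 0.324) in nose, a ratio of 543 (186 to 2637). With the floor of 3 fragments, eye was 530-fold above brain (lower limit 430), and it was 1758-fold above the single gill fragment (315 to 69466).

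The eye transcript of Opsin-5 had 164 fragments in eye, against 2 in kidney and 1 each in head kidney and testis. The other 9 libraries, brain and gill among them, had 0. This was the lowest count of the 4 eye transcripts, and the counts outside eye did not order the other tissues. The level was 6.34 FPKM in eye and 0.079 (0.00957 to 0.285) in kidney, a ratio of 80.5 (21.9 to 670). With the fragment floor, eye was 46.8-fold above brain (lower limit 37.7) and 51.8-fold above gill (lower limit 41.7). At this depth a level up to 0.136 FPKM in brain or 0.123 in gill could not have been told from 0.

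The spleen transcript of Opsin-5 had a different distribution. It had 418 fragments in spleen, against 47 in head kidney, 46 in testis, 23 in gut and 15 in kidney. Gill and nose had 8 each, brain had 4, eye had 3, stomach had 2, liver had 1, and heart and muscle had 0. Spleen was thus followed by head kidney, which in teleosts is a blood-forming organ, and by testis, and eye was among the lowest. The level was 14.8 FPKM (13.4 to 16.2) in spleen, against 1.61 (1.18 to 2.13) in head kidney, 1.54 (1.13 to 2.05) in testis and 0.096 (0.0198 to 0.281) in eye. Spleen was 9.19-fold above head kidney (6.79 to 12.7) and 154-fold above eye (52.5 to 752). Head kidney and testis did not differ beyond counting error (ratio 1.04, 0.680 to 1.60), testis was 1.97-fold above gut (1.17 to 3.40), and none of the further neighbours from gut down to liver differed beyond it. It was the 1 of 5 transcripts above 3 SD in spleen, as were 2.84% of all transcripts.

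The pair of transcripts named Opsin-5 had nearly opposite orders of eye and spleen. In eye, the eye transcript was 66.4-fold above the spleen transcript (22.3 to 325). In spleen, the eye transcript had 0 fragments. The current RefSeq annotation of the pike genome (fEsoLuc1.pri) lists 1 gene with the symbol opn5 and 8 with the symbols opn6 to opn9, which are other members of the neuropsin group in teleosts, and which of these genes either transcript belongs to was not determined here.

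Of the other opsins on the list, 2 transcripts were matched to deposited values, from 7 annotated rows. The Melanopsin-like transcript, a relative of the photopigment of light-sensitive retinal ganglion cells, had 107 fragments (6.73 FPKM, 5.51 to 8.13) in eye, 3 in testis and 0 in the other 11 libraries. In eye it did not differ beyond counting error from the eye transcript of Opsin-5 (Opsin-5 over Melanopsin-like 0.944, 0.735 to 1.22). Opsin-3, known as encephalopsin and expressed in mammalian brain and other tissues, had 55 fragments in eye, 52 in spleen, 24 in brain, 3 in kidney, 2 in gill and 1 in testis. Its levels were 2.34 FPKM (1.75 to 3.07) in spleen and 2.23 (1.68 to 2.91) in eye, a ratio of 1.05 (0.703 to 1.56). In eye, Opsin-5 was 2.84-fold above Opsin-3 (2.08 to 3.93). Vertebrate ancient opsin, peropsin, Red-sensitive opsin-2 and Ultraviolet-sensitive opsin were named only on gene models that could not be paired with a deposited transcript, so the cone pigments have no values here.

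Of the phototransduction and photoreceptor list, 6 transcripts were matched from 15 annotated rows and 6 were highest in eye, as were 4.89% of all transcripts. With at least 10 eye fragments, 4 of the 6 were at least 10-fold above the next tissue, against 1.04% of all transcripts. Rhodopsin was 13.8-fold above Arrestin-C in eye (13.6 to 13.9) and 120-fold above Peripherin-2 (117 to 124). Arrestin-C had 41884 fragments in eye, against 15 in stomach, 13 in gut, and 12 each in gill and brain. Peripherin-2 had 4193 in eye, against 3 in gill, 2 in brain and 1 in gut. C2orf71 stood at 0.440 times the eye level of Peripherin-2 (0.417 to 0.465). Aryl-hydrocarbon-interacting protein-like 1, a chaperone of the photoreceptor phosphodiesterase, had 37.2 FPKM in eye and 0.288 in nose. Oxygen-regulated protein 1, a microtubule protein of the photoreceptor outer segment, had 9.31 FPKM in eye and 0.450 in brain. The remaining pair were less restricted: Fascin-2, an actin-bundling protein, had 30.1 FPKM in eye and 15.7 in testis, and Serine/threonine-protein phosphatase with EF-hands 2 had 7.10 in eye and 1.20 in testis.

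Of the retinal neuron list, 8 transcripts were matched from 10 annotated rows, and 3 were highest in eye, against 4.89% of all transcripts. Neurogenic differentiation factor 1, a transcription factor of photoreceptors and other neurons, had 46.5 FPKM in eye and 0.120 in testis, a ratio of 388 (133 to 1885). Gamma-aminobutyric acid receptor subunit rho-3 had 6.89 FPKM in eye and 0.694 in nose. Metabotropic glutamate receptor 6, the glutamate receptor of ON bipolar cells in mammals, was instead highest in testis, at 5.11 FPKM, with 0.437 in eye. The rho-1 subunit had 1.69 FPKM in eye, 2.47 in gut, 2.43 in testis and 1.54 in brain. Both rho-2 transcripts (1.54 and 0 FPKM in eye, against 2.05 and 1.40 in brain) and 1 of the transcripts of Voltage-dependent L-type calcium channel subunit alpha-1F (0.621 in eye, 0.725 in brain) were highest in brain, each with at most 10 fragments in any library. The other alpha-1F transcript, the last of the 3 highest in eye, had 9 fragments, all in eye. For lens and pigment, only 5,6-dihydroxyindole-2-carboxylic acid oxidase, an enzyme of melanin synthesis, was matched from 2 annotated rows, with 380 FPKM in eye (374 to 386) and 3.19 in spleen.

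**Figure D2:**
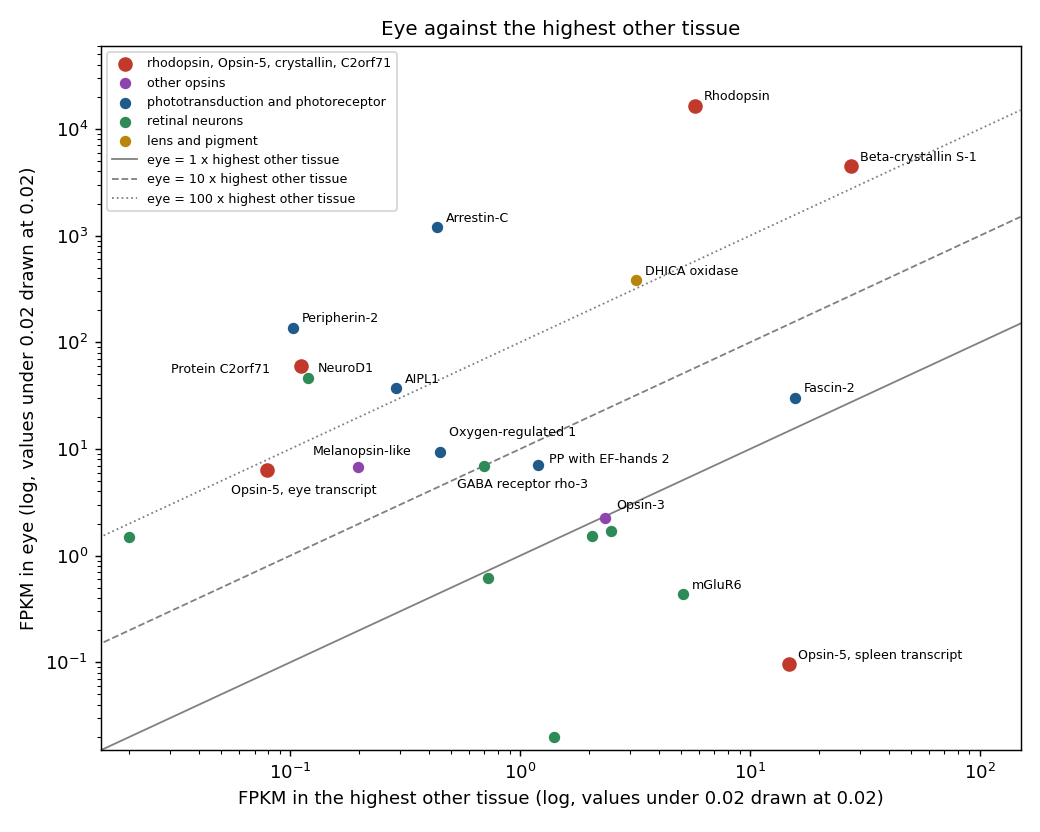
Eye level against the level in the highest other tissue for the 5 transcripts and for the matched transcripts of the 4 lists, in FPKM on log axes, each point 1 transcript; lines mark equality, 10-fold and 100-fold. Rhodopsin, Beta-crystallin S-1 and protein C2orf71 lie above the 100-fold line, the eye transcript of Opsin-5 lies between the 10-fold and 100-fold lines, and its spleen counterpart lies far below equality. DHICA oxidase stands for 5,6-dihydroxyindole-2-carboxylic acid oxidase, AIPL1 for Aryl-hydrocarbon-interacting protein-like 1, NeuroD1 for Neurogenic differentiation factor 1, PP for phosphatase and mGluR6 for Metabotropic glutamate receptor 6.

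At least 1 fragment was present in brain for 3 of 5 transcripts, against 86.9% of all transcripts, and in gill for 4 of 5, against 72.4%. Most transcripts of any kind had such a fragment, so the size of the signal relative to eye was compared as well. Per 10000 eye fragments, Beta-crystallin S-1 had 2.63 fragments in gill (1.73 to 3.82), 3.60 in stomach and 3.40 in gut. Rhodopsin had 3.31 in gill (2.84 to 3.83), 2.61 in stomach and 2.41 in gut, and Arrestin-C had 2.87 in gill. The relative signal of the crystallin over that of rhodopsin was 0.794 in gill (0.509 to 1.19), 1.38 in stomach (0.934 to 1.99) and 1.41 in gut (0.945 to 2.07), so that in none of the 3 libraries did a lens and a rod transcript differ beyond counting error. In brain the same ratio was 220 (128 to 416), from 52.6 per 10000 for the crystallin and 0.239 for rhodopsin. Brain is among the libraries in which the crystallin transcript and the gene model that names it differed, the model being relatively higher.

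Testis gave another difference between the lens and the rod transcript. The crystallin had 3.99 fragments per 10000 in testis (2.86 to 5.41), whereas rhodopsin had 0 fragments, with an upper limit of 0.0678 per 10000. The testis value of the crystallin is among those in which transcript and gene model differed. For rhodopsin the distance between transcript and gene model was smaller (2.49, against 18.6 for the crystallin), and gut and stomach, in which the transcript had relatively more fragments, made up 62.6% of it. In the 7 libraries other than eye, brain, gill, gut, stomach and testis, the crystallin had at most 0.292 per 10000 and rhodopsin had 0.

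The same comparison was made for all transcripts with at least 5000 eye fragments and an eye level at least 100-fold above the next tissue, 21 in all, rhodopsin, Beta-crystallin S-1 and Arrestin-C among them. Their median was 3.40 per 10000 in gill, 3.40 in gut and 3.58 in stomach. Outside brain, at 10.2, the medians of the other 8 libraries were at most 0.670. The gill, gut and stomach values of rhodopsin and the crystallin lay near these medians, while their brain values lay on either side of the brain median, whose quartiles were 4.19 and 26.2. The 100-fold rule limits every value outside eye by construction, and both transcripts belong to the set.

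**Figure D3:**
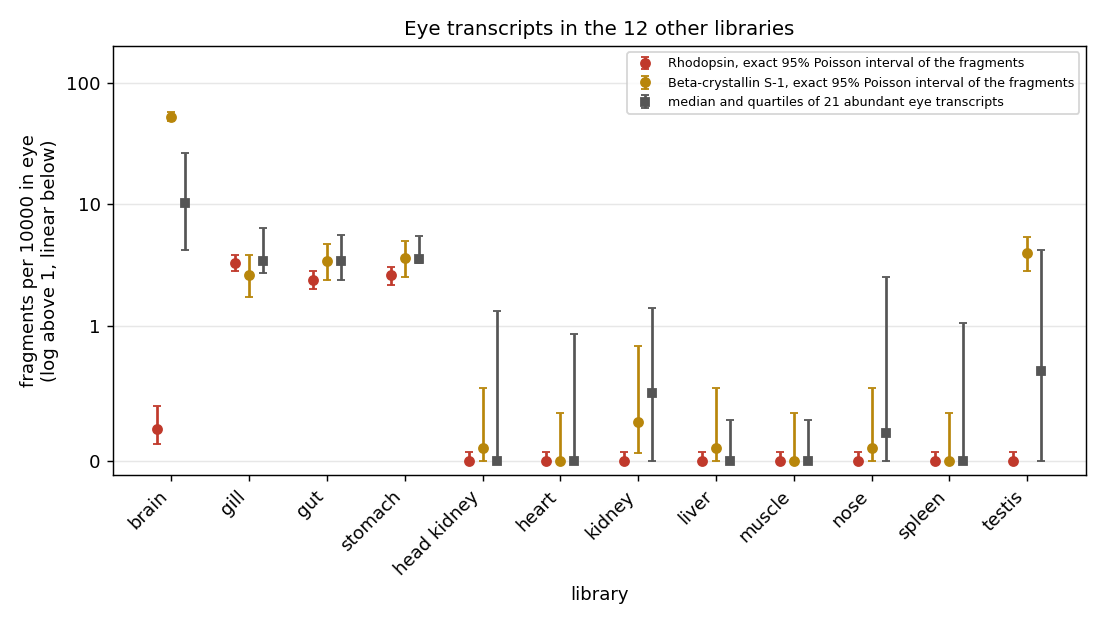
Fragments in each of the 12 other libraries per 10000 fragments in eye, for rhodopsin and Beta-crystallin S-1 with exact 95% Poisson intervals, and the median with quartiles of the 21 abundant eye transcripts; the axis is logarithmic above 1 and linear below. In gill, gut and stomach all 3 lie between 2.41 and 3.60, whereas in brain the crystallin lies at 52.6 and rhodopsin at 0.239.

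The low signal in gill, gut and stomach had a counterpart in the opposite direction. Among transcripts abundant in gut (30 by the same rule), the median per 10000 gut fragments was 2.90 in eye, 3.87 in gill and 3.93 in stomach, and at most 0.861 in the other 9 libraries. Among those abundant in stomach (13), the medians were 4.75 in eye, 5.15 in gill and 3.69 in gut. Nose, at 5.99, was the 1 other library above 0.0399 for the stomach transcripts. Gill had only 3 such transcripts, with medians of 1.62 in eye, 2.60 in gut and 4.87 in stomach, and also 7.38 in kidney and 1.95 in nose. Signal of this size was not particular to these libraries. Transcripts abundant in liver (45) had medians of 9.58 in gill, 6.54 in gut, 18.1 in stomach and 21.6 in head kidney. Their median in eye was 0.421. Those abundant in heart (9) had 4.69 in head kidney, 5.97 in kidney and 3.02 in liver, but 0 in gut and stomach. Per the methods, indexed samples were pooled several to a sequencing lane, along with samples of other projects. The lane of each library is not stated in what was read here. The part of exchange between libraries in the low gill, gut and stomach values was not tested.

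**Figure D4:**
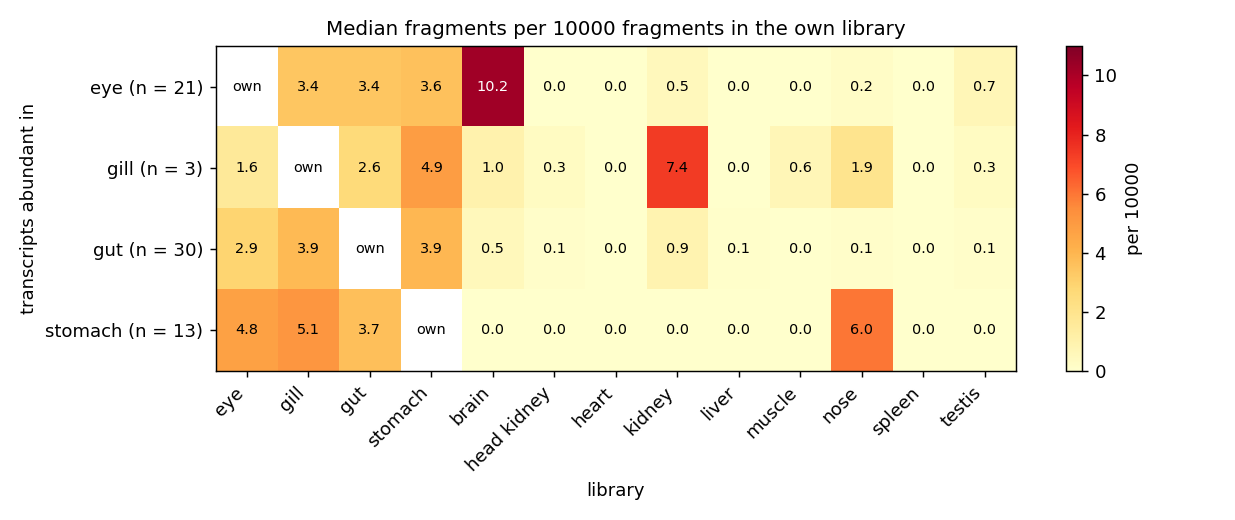
Median number of fragments in each library per 10000 fragments in the own library, for transcripts abundant in eye (21), gill (3), gut (30) and stomach (13) and at least 100-fold lower elsewhere; colour gives the same value. The 4 libraries at the left held 1.6 to 5.1 per 10000 of each other's transcripts, and values of that size or above were also found in brain for eye transcripts (10.2), in kidney (7.4) and nose (1.9) for gill transcripts, and in nose for stomach transcripts (6.0). Transcripts abundant in other libraries are not drawn.

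The brain signal and the gill signal of eye transcripts were also compared without the 100-fold rule. Over the 62 transcripts with at least 5000 eye fragments that lay above 3 SD in eye, the brain value was between 0 and 3071 per 10000, with a median of 129 and quartiles of 14.4 and 305. The gill value was between 0 and 1579, with a median of 3.97 and quartiles of 2.91 and 7.33, and 50 or more per 10000 were found for 39 of the 62 transcripts in brain and for 7 in gill. In the order of rising brain value, rhodopsin was 2nd of 62, Arrestin-C 4th, 5,6-dihydroxyindole-2-carboxylic acid oxidase 19th, at 26.2 per 10000, and Beta-crystallin S-1 24th. Rhodopsin and Arrestin-C were thus at the low end of the set in brain and the lens crystallin lay below its median, while 58 of the 62 transcripts had no name here.

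**Figure D5:**
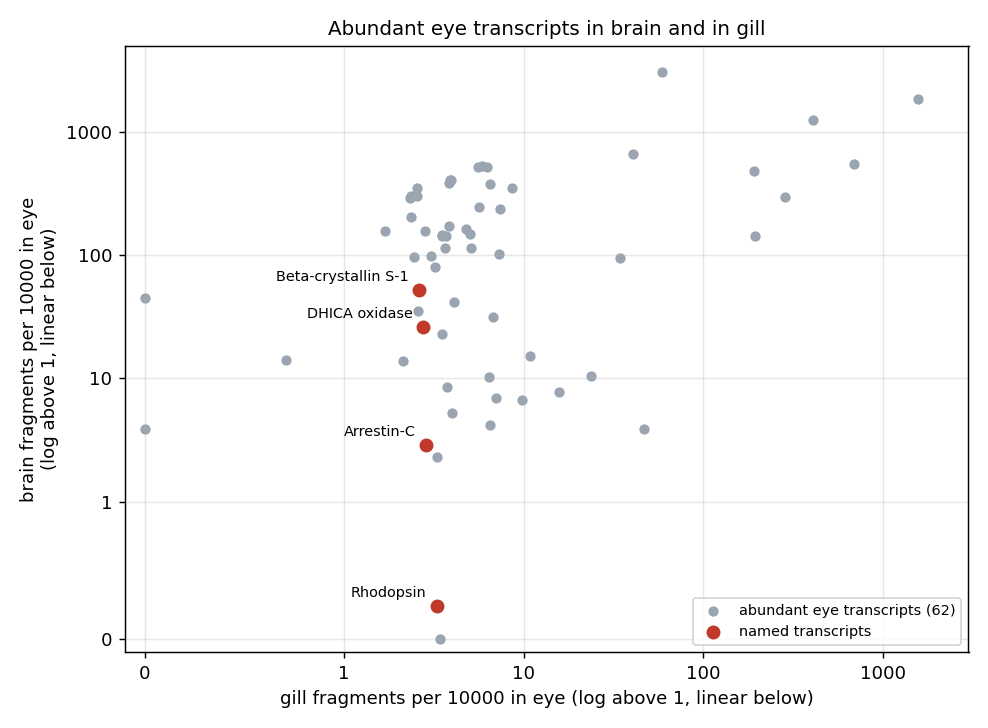
Brain against gill fragments per 10000 eye fragments for the 62 abundant transcripts above 3 SD in eye, each point 1 transcript; axes are logarithmic above 1 and linear below. The 4 named transcripts have nearly the same gill value (2.6 to 3.3), while their brain values extend between 0.239 for rhodopsin and 52.6 for Beta-crystallin S-1.

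The named transcripts whose profile was most like each member's were found by the Pearson correlation of log2(FPKM + 0.1) over the 13 tissues among 717 candidates with at least 100 fragments. For rhodopsin they were Arrestin-C (0.967), Peripherin-2 (0.909) and Voltage-dependent L-type calcium channel subunit alpha-1D (0.897). For Beta-crystallin S-1 they were Arrestin-C (0.925), Alpha-internexin (0.922), a neuronal intermediate filament protein, and Lactase-like protein (0.920). Protein C2orf71 was most like Cadherin-related family member 5 (0.988), Peripherin-2 (0.986) and Beta-1,3-galactosyltransferase 2 (0.986). The eye transcript of Opsin-5 shared the 1st and the 3rd of these (0.988 and 0.980), with Serine/threonine-protein kinase NIM1 (0.981) between them. The spleen transcript of Opsin-5 was most like Extracellular calcium-sensing receptor (0.875), Ankyrin repeat domain-containing protein SOWAHD (0.848) and Lecithin retinol acyltransferase (0.838). In this order they had 132, 490 and 604 fragments in spleen, and 2, 33 and 6 in eye. These correlations are descriptions over 13 libraries of 1 fish and rest largely on the single highest tissue.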

How the data were processed

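RNA from 13 tissues of 1 pike was sequenced as paired ends, 1 library per tissue. Per the methods, the authors trimmed reads (Trimmomatic), assembled all tissues together (Trinity), kept a non-redundant protein-coding set and mapped each library back to it. No source used here names the mapping or counting tools. The deposited files give raw fragment counts and the authors' FPKM values for 38696 transcripts, without gene names.

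Names came from the parts of the supplementary tables at hand (1999 rows of each of 2 tables). Their fragments, FPKM values and lengths served only to match rows to deposited transcripts and to describe how closely the profiles matched. No levels from these tables are reported. Table rows of assembled transcripts were matched by equality of all 13 counts and FPKM values (816 named). Gene models were paired by their 13-tissue fragment profile, 372 in all: 113 equal within 1 fragment or 0.1%, 8 within 0.5%, and 251 scaled by a factor between 0.5 and 2, these last with limits on the distance of the profiles that were chosen after looser pairs were seen to give discordant names. Of 6 paired models whose transcript also had a name of its own, 6 had the same name. The limits were chosen with discordant names already seen, so this agreement is no independent check of the scaled names. Rhodopsin, Beta-crystallin S-1 and the spleen transcript of Opsin-5 were named by scaled pairs, C2orf71 and the eye transcript of Opsin-5 by equality. Of the 251 scaled pairs, 182 were the single transcript within the tolerance and 69 were chosen as the nearest. Rhodopsin and the crystallin were single pairs, and the spleen transcript of Opsin-5 was a nearest pair. For the last, nose and gut made up 46.1% of the distance between transcript and gene model.

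Intervals are exact Poisson, exact conditional (ratios) or Clopper-Pearson binomial, at 95%. Computation used Python 3.11.15 with numpy 2.4.6, pandas 2.3.3 and scipy 1.17.1. Named genes were the members, 4 lists of opsin, photoreceptor, retinal neuron and lens or pigment names, and the 3 most correlated named transcripts per member. Members and lists were chosen with earlier results of these data known. No test across genes was possible with 1 library per tissue. The scripts were tested on simulated data. Transcript sequences were not used here.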

Additional observations from a re-analysis of the deposited data

How the results depend on the processing

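No paired analysis was possible because each tissue had 1 library, so no replicate could be left out either. Scaling by TPM lowered every eye over brain ratio by 0.24 on the log2 scale, and taking library totals without the 100 most abundant transcripts raised it by 0.47. The direction of no ratio changed. Beta-crystallin S-1 was 138-fold above brain by TPM and 225-fold without the abundant transcripts, against 163, for both eye over brain and highest over next tissue, and rhodopsin was 3478-fold above its next tissue without them, against 2866. On log2(FPKM + 0.1) the SD scores of rhodopsin (2.92), Beta-crystallin S-1 (2.76) and the spleen transcript of Opsin-5 (2.45) fell below 3, as did the last on log2(FPKM + 1), at 2.995. The count of 402 transcripts at least 10-fold higher in eye became 65 at 100-fold. The brain median of abundant eye transcripts was 10.2 per 10000 when eye had to be 100-fold above the next tissue, which limits the brain value by construction, and 129 when it only had to exceed 3 SD. With equality as the sole way of naming, 2 of the 5 transcripts kept a name, C2orf71 and the eye transcript of Opsin-5. Of 56 recomputed values, 44 stayed within their interval, within 1.5 times the count, or on the same side of 3 SD. Some of the 44 could not have come out otherwise. Among them were 5 with the SD computed with n, 5 with a floor of 1 fragment and 1 without a minimum of fragments. The eye over brain intervals of C2orf71 and the eye transcript of Opsin-5 had no upper limit. Their rise to 733 and 64.8 without the 100 most abundant transcripts therefore could not leave them. Depth limits statements on both Opsin-5 transcripts, with 164 and 3 fragments in eye.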
